A study of Mus musculus with 4 samples.

Results

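The genes of the MHC class I antigen presentation pathway were followed across 4 lung tumors of KP mice. They were 10 genes chosen by symbol, H2-K1, H2-D1, H2-T23, B2m, Tap1, Tap2, Tapbp, Nlrc5, Psmb8 and Psmb9, of 39017 genes in the count table, and each of the 10 symbols matched 1 gene. The tumors formed a single Control group with no treated or tumor-free tissue beside it, so the measurements are levels, their order and their spread between tumors. All 4 came from male C57BL/6 mice of the KP model, which carry floxed Trp53 (fl/fl), so that Cre recombinase starts tumors in which Trp53 is deleted. Cre was delivered into the airways as 1500 viral units of Lenti.PGK-Cre, whose ubiquitous PGK promoter does not restrict recombination to a cell type, and tumors were macrodissected after 22 weeks and 5 days. A further floxed allele, heterozygous in the labels, is not given a gene name there; column names of the log2 table read WT, and by the study's methods a control could be wild type or carry 1 floxed copy of Slc2a1. The labels do not say whether the tumors came from separate mice, so every p-value here measures only the spread between these samples.

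Class I molecules show peptides from inside the cell to CD8 T cells. The proteasome cuts proteins into peptides, the transporter Tap1-Tap2 pumps the peptides into the endoplasmic reticulum, and tapasin (Tapbp) holds the transporter beside empty class I molecules until a peptide is bound. A class I molecule is a heavy chain paired with the invariant light chain B2m. Interferon gamma raises transcription of the whole pathway, partly through the transactivator Nlrc5, and exchanges catalytic subunits of the proteasome for inducible ones such as Psmb8 and Psmb9. Alveolar type 2 cells, a main origin of KP tumors, also carry class II molecules, and tumor cells often lower class I to escape T cells.

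The promoters of these genes are known for a shared architecture: an enhancer with an NF-kB palindrome and an interferon response element, then an X box and a Y box nearer to the start, where Nlrc5 acts with the RFX, CREB and NF-Y factors. RefSeq promoter windows (GRCm38.p6, 250 bases before to 50 after the start) were found for 8 of the 10 genes. The upstream bases of H2-K1 and B2m are shown because both carried the X2 letters TGACG followed, after 15 to 25 bases, by the inverted Y box ATTGG. Capitals mark, from 5′ to 3′, the enhancer letters, TGACG and ATTGG. H2-K1 lies at chr17:34000348-34000597 on the minus strand and B2m at chr2:122147437-122147685 on the plus strand.
H2-K1: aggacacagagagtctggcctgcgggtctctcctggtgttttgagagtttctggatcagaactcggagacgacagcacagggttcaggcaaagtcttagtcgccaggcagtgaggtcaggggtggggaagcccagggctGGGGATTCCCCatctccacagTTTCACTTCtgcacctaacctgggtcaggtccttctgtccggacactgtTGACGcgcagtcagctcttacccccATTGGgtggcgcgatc
B2m: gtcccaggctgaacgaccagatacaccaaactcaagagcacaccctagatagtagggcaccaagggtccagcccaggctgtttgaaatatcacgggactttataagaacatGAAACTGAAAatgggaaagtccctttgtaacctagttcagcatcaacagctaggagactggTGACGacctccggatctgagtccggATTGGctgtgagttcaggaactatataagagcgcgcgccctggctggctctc

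That spaced pair of letters was found in 3 of the 8 windows (B2m, H2-K1 and H2-D1) and in 0.435% of all 32851 RefSeq windows, searched on both strands. The X2 letters alone were in 5 of 8 windows and in 20.8% of all windows, and CCAAT, the Y box on its other strand, in 7 of 8 and 37.4%, so both were common in promoters at large. Tap1 and Psmb9 are counted as 2 windows here although their windows overlap by 275 nt, so they share most of their letters. The palindrome GGGGATTCCCC was found in both classical heavy chain genes and in 0.0304% of all windows. Right after it both genes carried the interferon response letters GAANTGAAA on the opposite strand (1.83% of all windows), whereas B2m and H2-T23 carried the form GAAANNGAAA (3.44%). The spellings were chosen after these windows were read, and a match of letters is a description and not a binding site. The 30 bases from the palindrome on are shown for both genes, at chr17:34000429-34000458 (minus strand) for H2-K1 and chr17:35262923-35262952 (plus strand) for H2-D1, because 29 of 30 bases were equal. The H2-D1 stretch lies upstream of the RefSeq start but within an exon of H2-D1 as GENCODE annotates it. Capitals mark the palindrome and the interferon response letters, and the 1 substitution from H2-K1 to H2-D1 was A18T, counted from 1 at the 5′ end.
H2-K1: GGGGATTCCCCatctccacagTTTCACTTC
H2-D1: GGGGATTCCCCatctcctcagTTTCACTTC

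Tap1 and Psmb9 lie head to head, with RefSeq starts 225 bases apart on opposite strands, so by RefSeq 1 stretch of DNA lies upstream of both the transporter and the proteasome subunit. GENCODE annotates exons across it, since its Psmb9 gene runs on to 34187764. The 30 bases around the X2 letters in this shared stretch are shown with those letters in capitals, at chr17:34187458-34187487 on the strand of Tap1.
Tap1: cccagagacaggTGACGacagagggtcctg

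Of the 10 genes, 8 lie on chromosome 17 in the mouse MHC region, B2m on chromosome 2 and Nlrc5 on chromosome 8 (GRCm38). Psmb9, Tap1, Psmb8 and Tap2 follow each other there, from the first base of Psmb9 at 34181987 to the last base of Tap2 at 34216321. H2-K1 spans chr17:33996017-34000347, H2-D1 chr17:35262730-35267499, H2-T23 chr17:36029773-36032855 and Tapbp chr17:33915899-33929292. Total counts were between 8151613 and 8799007 per tumor, and single values of the 10 genes rested on 50 to 4024 counts. Counts were scaled to CPM (counts in every 1000000 of the TMM library size), and to CPM per kilobase of annotated exon wherever genes are compared with each other. All tumors carried strong epithelial and alveolar type 2 transcripts: Epcam had 218 to 600 CPM, the lineage factor Nkx2-1 290 to 396 CPM and the surfactant gene Sftpc 17722 to 29617 CPM. The RNA came from whole cell suspensions that kept the immune cells, and in such bulk RNA fewer cells of a type and less RNA per cell cannot be told apart.

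B2m (ENSMUSG00000060802), the light chain shared by all class I molecules, was the most abundant of the 10 per length. Its level was 328, 414, 467 and 424 CPM per kilobase in tumors 1 to 4 (mean 408 ± 58.3, SD, n = 4). Tumor 1 was the lowest and tumor 3 the highest, with a 1.43-fold range of CPM. H2-D1 (ENSMUSG00000073411), a classical heavy chain, followed with 165, 161, 146 and 181 CPM per kilobase (163 ± 14.6). H2-K1 (ENSMUSG00000061232), the other classical heavy chain of C57BL/6 mice, had 151, 127, 114 and 148 CPM per kilobase (135 ± 17.4). Both heavy chains were lowest in tumor 3, the tumor in which B2m was highest.

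H2-T23 (ENSMUSG00000067212) encodes Qa-1, a nonclassical heavy chain that presents leader peptides of other class I molecules to NKG2 receptors. It had 19.6, 23.4, 14.7 and 19.6 CPM per kilobase (19.3 ± 3.57) and was also lowest in tumor 3. Over the 3 heavy chains named so far and 13 other heavy chain genes, H2-D1 held 42.6% ± 0.701 (SD, n = 4) of their total CPM per kilobase, H2-K1 35.1% ± 2.44 and H2-T23 5.02% ± 0.799. The classical pair together held 80.5, 75.6, 75.5 and 79.1% in tumors 1 to 4. The share of H2-D1 thus differed by little from tumor to tumor, while that of H2-K1 was 38.4% in tumor 1 and 33.1 to 35.5% in the others.

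Tapbp (ENSMUSG00000024308), the loading chaperone tapasin, had 29.8, 22.9, 19.7 and 26.5 CPM per kilobase (24.7 ± 4.39). Tumor 3 was lowest here as well. Tap2 (ENSMUSG00000024339) and Tap1 (ENSMUSG00000037321), the partners of the peptide transporter, lay far lower. Tap2 had 3.49, 3.66, 3.85 and 4.69 CPM per kilobase (3.92 ± 0.531), highest in tumor 4. Tap1 had 3.15, 3.27, 3.54 and 3.48 CPM per kilobase (3.36 ± 0.179), and its 4 counts, 157, 154, 157 and 160, were nearly equal.

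Psmb8 (ENSMUSG00000024338), the inducible subunit Lmp7, had 6.997, 7.35, 8.18 and 9.39 CPM per kilobase (7.98 ± 1.06). Psmb9 (ENSMUSG00000096727), the inducible subunit Lmp2, had 1.95, 2.73, 2.66 and 2.34 CPM per kilobase (2.42 ± 0.355). Tumor 1 was lowest for both, whereas the highest was tumor 4 for Psmb8 and tumor 2 for Psmb9. Nlrc5 (ENSMUSG00000074151), the transactivator, was the least abundant with 0.764, 0.684, 0.785 and 0.784 CPM per kilobase (0.754 ± 0.0479). Its counts of 59, 50, 54 and 56 gave 95% exact Poisson intervals from 4.31 to 7.66 CPM in tumor 2 and from 5.01 to 8.69 CPM in tumor 3, which overlap almost fully. Such intervals cover counting error only, since the reads carried no molecular identifiers.

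**Figure D1:**
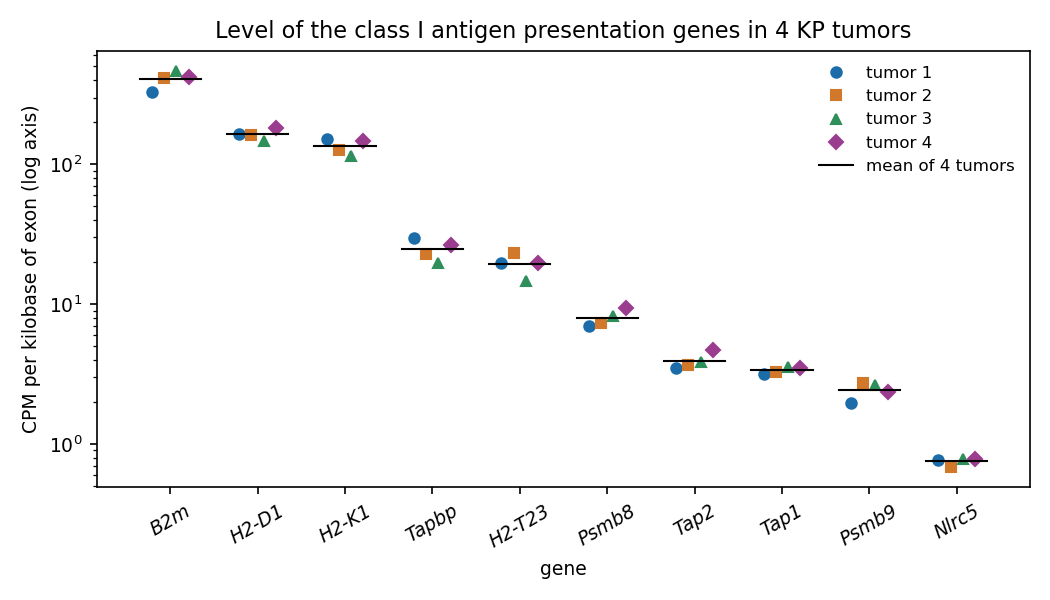
Level of each of the 10 genes in CPM per kilobase of exon on a log axis, with 1 symbol per tumor and a line at the mean of the 4 tumors. B2m lies at 328 to 467, the classical heavy chains at 114 to 181, and Nlrc5 lowest at 0.684 to 0.785 CPM per kilobase.

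From B2m to Nlrc5 the mean levels per length spanned 541-fold, in the order B2m, H2-D1, H2-K1, Tapbp, H2-T23, Psmb8, Tap2, Tap1, Psmb9 and Nlrc5. Of the 9 neighbors in this order, 8 kept it in 4 of 4 tumors. The exception was Tapbp against H2-T23, higher in 3 of 4 tumors with a ratio of 1.30 ± 0.228 (SD, n = 4), a pair that did not differ beyond its spread (p = 0.25 and adjusted p = 0.25, two-sided exact permutation of signs). The design cannot reach 0.05, because 4 tumors allow no p below 0.13, and each of the other 12 of 13 pairs tested was at that smallest value (adjusted p = 0.135 over the 13 pairs). The order of neighbors follows from ranking them, so it is a description.

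H2-K1 was 0.824 ± 0.0601 times H2-D1 and Tap1 was 0.864 ± 0.0822 times Tap2 (SD, n = 4), and both ratios were under 1 in 4 of 4 tumors. Both orders turned when length was that of the longest annotated transcript in place of all exons, to 1.05 and 1.10. Psmb8 was 2.00, 2.01, 2.12 and 2.00 times Tap2 in tumors 1 to 4 (2.03 ± 0.0580), and 3.28 times with the longest transcript. H2-K1 was 5.48 ± 0.307 times Tapbp, and Psmb9 was 3.22 ± 0.605 times its regulator Nlrc5.

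Reads of some of these genes could have been lost or lent to others. H2-K1 shares near-identical stretches, the longest 207 nt, with Gm8909 (0.141 CPM) and H2-Q7 (12.5 CPM), and the exons of Tap1 and Psmb9 overlap by 212 nt on opposite strands. Tapbp overlaps Zbtb22 by 149 nt on the same strand and shares stretches of 81 to 307 nt with 7 genes in all, Nlrc5 overlaps the antisense gene 9330175E14Rik by 78 nt, and Psmb8 and Tap2 overlap antisense genes with at most 0.123 CPM in any tumor. H2-T23 shares repeat-like stretches of 98 to 174 nt with 9 genes elsewhere. B2m and H2-D1 had neither a near-identical copy nor an overlapping exon.

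The spread of the 10 genes between tumors was narrow. The highest tumor was 1.12-fold (Tap1) to 1.59-fold (H2-T23) above the lowest, and 0 of the 10 genes reached 2-fold, a range that 28.1% of the 14225 genes with a mean of at least 1 CPM reached. The median of the highest-over-lowest ratios was 1.34 for the 10 genes and 1.58 for all tested genes. The SD of log2 CPM was below the median of all tested genes (0.29) for 10 of 10, and below the median of genes within 2-fold of their own level for 8 of 10, the exceptions being Tapbp and H2-T23. The smallest SDs were those of Tap1 (0.08) and Nlrc5 (0.09), lower than 0.12 and 0.19, the SDs that counting alone would give at their depth. The largest were 0.28 for H2-T23 and 0.26 for Tapbp.

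**Figure D2:**
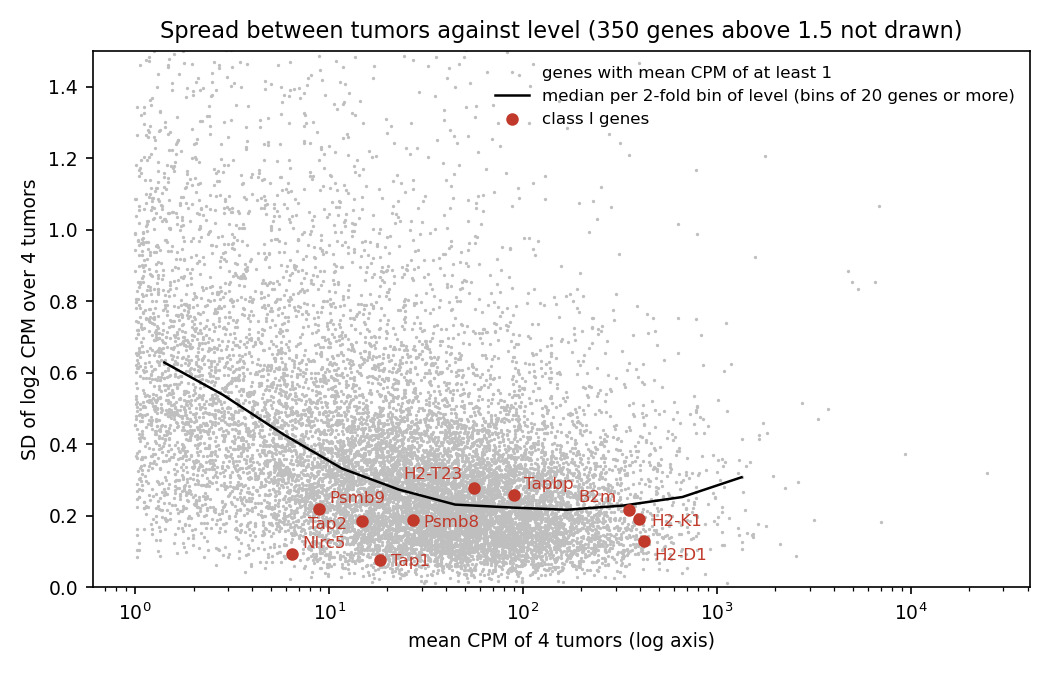
SD of log2 CPM over the 4 tumors against mean CPM (log axis) for genes with a mean of at least 1 CPM (grey points), with the median SD per 2-fold bin of level (black line) and the 10 class I genes in red. Tap1 at 0.08 and Nlrc5 at 0.09 lie far under the line, while H2-T23 at 0.28 and Tapbp at 0.26 lie over it; 350 genes with an SD above 1.5 are not drawn.

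Beyond counting noise, 6 of the 10 genes varied (chi-square test for Poisson counts, Benjamini-Hochberg adjusted p under 0.05), as did 76.7% of all genes tested, so the share of the 10 was no higher than the background. The 6 were B2m (adjusted p = 1.27e-39), H2-K1 (4.18e-35), H2-D1 (3.02e-17), Tapbp (5.83e-15), H2-T23 (8.31e-10) and Psmb8 (0.00889). Tap2 (0.0894), Psmb9 (0.195), Tap1 (0.739) and Nlrc5 (0.892) did not pass, and these hold the fewest counts, so smaller differences could not be detected in them. The call for Psmb8 rests on tumor 4, without which its adjusted p was 0.264. Against genes of like abundance, 0 of the 10 varied more than their level predicts (edgeR goodness of fit of a negative binomial model, adjusted p under 0.05), where 3.04% of all genes did, and 0 of 10 did so at an unadjusted p under 0.05, where 7.47% did. No tumor stood apart by Dixon's ratio in any of the 10, against 5.86% of all genes.

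The 6 genes that varied beyond counting noise did not share 1 lowest tumor. H2-K1, H2-D1, H2-T23 and Tapbp were each lowest in tumor 3, whereas B2m was highest there and lowest in tumor 1, where Psmb8 was lowest too. In CPM, B2m had 282, 356, 402 and 364 in tumors 1 to 4, and H2-K1 had 443, 374, 335 and 434. B2m and H2-K1 thus ran in opposite order through tumors 1, 2 and 3. The ratio of B2m to H2-K1 per length was 2.18 in tumor 1, 3.25 in tumor 2, 4.10 in tumor 3 and 2.87 in tumor 4 (3.10 ± 0.804, SD, n = 4). With the longest transcript the mean ratio was 1.98. B2m was 0.835 times the sum of all listed heavy chains in tumor 1 and 1.02 to 1.36 times in the others (1.07 ± 0.216). The SD of log2 CPM of B2m was 0.22 over 4 tumors and 0.095 without tumor 1. B2m still varied beyond counting noise without that tumor (chi-square test, adjusted p = 3.68e-06), so its spread did not rest on tumor 1 alone.

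**Figure D3:**
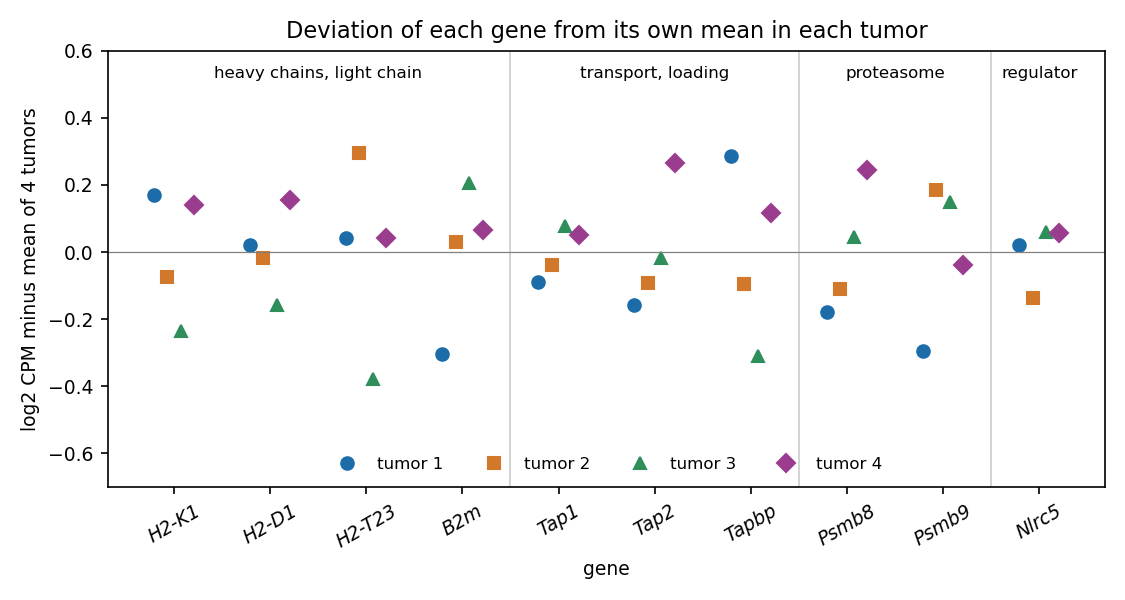
Log2 CPM of each gene minus its own mean over the 4 tumors, by role, with 1 symbol per tumor. Tumor 3 (green triangles) is the lowest point for H2-K1, H2-D1, H2-T23 and Tapbp and the highest for B2m; the points of Tap1, Tap2, Psmb9 and Nlrc5 did not vary beyond counting noise.

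Measured by the root mean square difference of centered log2 CPM over the 4 tumors, the smallest of the 45 differences was that of Tap2 and Psmb8 (0.035), neighbors on chromosome 17. H2-K1 and Tapbp (0.071), Tap1 and Nlrc5 (0.075), H2-K1 and H2-D1 (0.089) and B2m and Psmb9 (0.096) followed. Counting error limits this ranking, since the SDs of log2 CPM that counting alone gives were 0.13 for Tap2, 0.095 for Psmb8, 0.12 for Tap1, 0.19 for Nlrc5 and 0.17 for Psmb9, each larger than the difference printed for its pair. The largest differences were those of Tapbp and Psmb9 (0.404) and B2m and Tapbp (0.398). The mean log2 CPM of the 10 genes deviated by -0.05, -0.01, -0.06 and 0.11 in tumors 1 to 4, with an SD of 0.077 that fell to 0.028 without tumor 4. Tumor 4 held the highest value of 3 genes and the lowest of none of the 10. The summed CPM of the 10 genes was 1384, 1367, 1305 and 1502, a 1.15-fold range.

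The inducible proteasome subunits were compared with the constitutive subunits whose places they take. Psmb8 reached 9.28, 11.7, 15.1 and 16.3% of Psmb5 in tumors 1 to 4 (13.1% ± 3.21, SD, n = 4, CPM per kilobase). Psmb9 reached 3.31, 6.12, 6.29 and 5.75% of Psmb6 (5.37% ± 1.39). Psmb10, the remaining inducible subunit, reached 21.9, 21.1, 19.2 and 20.5% of Psmb7 (20.7% ± 1.13). All 3 inducible subunits were below their counterparts in 4 of 4 tumors, at the smallest p the design allows (p = 0.13 and adjusted p = 0.135, two-sided exact permutation of signs). Tumor 1 had the lowest percentage for Psmb8 and Psmb9 and the highest for Psmb10.

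Of the inducible subunits, Psmb8 varied beyond counting noise, while Psmb9 (adjusted p = 0.195) and Psmb10 (0.396) did not pass the chi-square test. In CPM, Psmb5 had 67.9, 56.6, 48.6 and 51.9 and Psmb6 had 111, 84.0, 79.7 and 76.6, highest in tumor 1, where Psmb8 (23.7 against 24.9 to 31.8) and Psmb9 (7.15 against 8.56 to 9.99) were lowest. Psmb7 had 140, 119, 145 and 124 CPM and Psmb10 had 15.2, 12.4, 13.8 and 12.6 CPM. All 3 constitutive subunits varied beyond counting noise and 0 beyond genes of their level. The size depends on the length used: with the longest transcript the means were 23.2% for Psmb8, 3.52% for Psmb9 and 22.4% for Psmb10. With no division by length the mean log2 differences were -1.06 for Psmb8, -3.30 for Psmb9 and -3.28 for Psmb10. Per kilobase of exon they were -2.97, -4.26 and -2.27, so the order of the 3 pairs also depended on length.

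**Figure D4:**
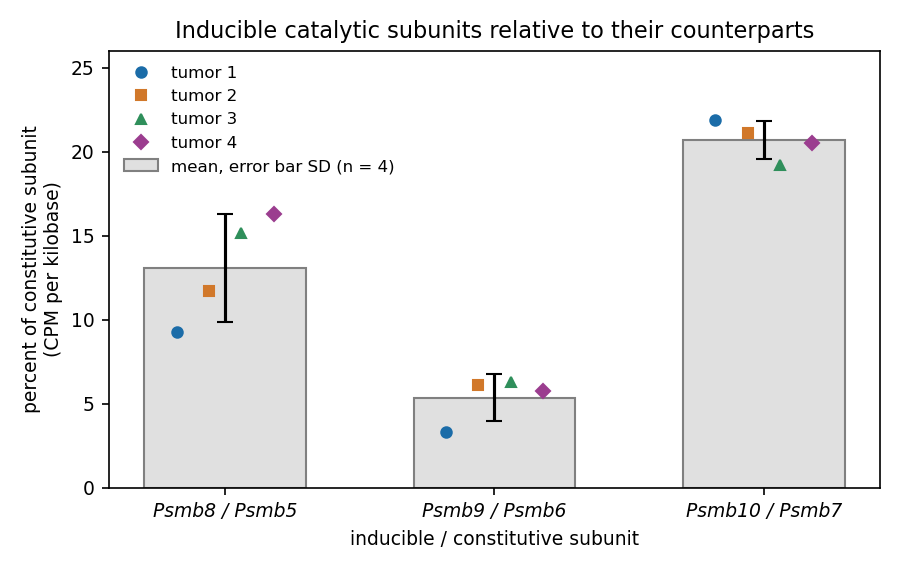
Inducible subunit as a percentage of its constitutive counterpart (CPM per kilobase) for the 3 catalytic pairs, with symbols for tumors, bars for the mean and error bars for the SD (n = 4). Psmb8 lies at 9.28 to 16.3%, Psmb9 at 3.31 to 6.29% and Psmb10 at 19.2 to 21.9%.

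Other genes of the pathway were taken from lists of related genes. Of 13 other class I heavy chains, 9 had a mean of at least 1 CPM, 7 of these varied beyond counting noise and 0 beyond genes of their level. The most abundant per length was H2-Q4, of the Q region, with 38.8, 46.5, 44.9 and 48.1 CPM. The widest spread was that of H2-M2, a nonclassical heavy chain, with 14.2, 20.9, 12.1 and 5.95 CPM (SD of log2 CPM 0.75). Per length H2-T10 was the lowest of the 9, with 1.73 to 2.74 CPM before division by length, but it shares a stretch of 1495 nt with H2-T22 and its count is uncertain. H2-Q1 and H2-T3 were at or under 3 counts, which is 0.330 to 0.370 CPM, in every tumor.

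Of the genes that supply peptides, all 7 were tested, 5 varied beyond counting noise and 0 beyond genes of their level, with a median SD of 0.21 and a median highest-over-lowest ratio of 1.399. Psme1, a subunit of the interferon-inducible proteasome cap PA28, had 146, 129, 97.4 and 135 CPM, and its partner Psme2 had 43.2, 34.8, 27.4 and 37.8 CPM. Both were lowest in tumor 3, as were H2-K1, H2-D1 and H2-T23, whereas of the 9 other heavy chains tested 1 was lowest there. Lnpep, the insulin-regulated aminopeptidase of cross-presentation, was the lowest per length and was highest in tumor 3 (57.2, 52.7, 73.8 and 59.5 CPM).

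All 6 loading chaperones varied beyond counting noise, with a median SD of 0.21 and 0 beyond genes of their level. Pdia3, the oxidoreductase of the peptide-loading complex, had 1169, 1380, 1016 and 1066 CPM. Tapbpl, the tapasin relative TAPBPR, had 24.1, 33.1, 21.5 and 26.9 CPM, and Uggt1, which tests glycoprotein folding, had 111 to 144 CPM. Tapasin itself was thus lowest in the same tumor as Pdia3 and Tapbpl but highest in tumor 1, where they were not.

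Regulators of the class I promoters were detected throughout, and 11 of 11 had at least 1 CPM. Of these, 9 varied beyond counting noise, with a median SD of 0.20. Rela, an NF-kB subunit, had 63.5, 51.2, 42.7 and 52.2 CPM. The RFX subunits Rfxank and Rfxap had 15.7 to 21.3 and 8.76 to 14.7 CPM, and Rfxap had the widest spread of the list. All 3 were lowest in tumor 3. Of the 11 regulators, 6 were lowest in tumor 3 and 3 were highest there, among them the NF-Y genes Nfyb and Nfyc. Irf1, chosen after its values were seen because it drives class I genes after interferon, had 62.7, 60.3, 62.9 and 58.9 CPM.

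Transcripts of the interferons on the list, Ifng and Ifnb1, were hardly seen, and no other interferon gene was listed. Ifng and Ifnb1 were at or under 3 counts in every tumor and were not detectable at this depth, while Ifngr1, a chain of the interferon gamma receptor, had 73.3, 72.4, 86.9 and 75.05 CPM. Ifnar2, a chain of the type I interferon receptor, had 17.6, 30.5, 26.3 and 22.4 CPM. Of the 9 interferon signaling genes, 6 were tested, 6 varied beyond counting noise and 0 beyond genes of their level. Among 14 interferon-stimulated genes, 9 varied beyond counting noise and 0 beyond genes of their level, and the median SD of 0.42 was above the 0.19 of the 10 class I genes, at mean levels of only 1.45 to 28.95 CPM. Mx1, an antiviral GTPase, had 4.40, 16.4, 23.4 and 12.7 CPM (SD of log2 CPM 1.03), whereas Gbp2, a guanylate-binding protein induced by interferon gamma, had 48.5, 29.7, 18.8 and 18.8 CPM. Cxcl9, a chemokine that attracts T cells, had 0.952 to 2.10 CPM. Tumor 1 was therefore lowest for one interferon-stimulated gene and highest for another.

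Markers of other cells moved between tumors too. The summed CPM of 8 pan-leukocyte genes was 541, 855, 858 and 746 in tumors 1 to 4. Lcp1, which was highest in tumor 2, gave 412, 696, 542 and 568 CPM of that sum. The other 7 of the 8 were highest in tumor 3, among them Ptprc (CD45) with 26.2, 35.8, 83.4 and 38.5 CPM. The mean log2 CPM of the 8 genes was 4.25, 4.70, 5.44 and 4.62. B2m was lowest and highest in the same tumors as the sum and this mean, though the sum hardly differed between tumors 2 and 3. H2-K1, H2-D1 and H2-T23 were lowest in tumor 3, and the part of leukocytes in B2m or the heavy chains was not tested. The epithelial list of 5 genes summed to 4430, 2741, 2660 and 2819 CPM, and the alveolar type 2 list of 8 genes to 31670 in tumor 1 and 51397 to 58797 in the others. A narrow summed range was not particular to the class I genes (1.15-fold). It was 1.14-fold for the peptide supply list, 1.17-fold for promoter regulators and for interferon-stimulated genes, and 1.19-fold for the other heavy chains. The class II list of 7 genes, which overlaps in regulation but holds none of the 10, summed to 2357, 4541, 3926 and 3330 CPM, a 1.93-fold range. Cd74, the invariant chain, had 1230, 2494, 1954 and 1596 CPM, and Ciita, the class II counterpart of Nlrc5, had 34.9, 74.3, 53.9 and 54.0 CPM. H2-Aa, a class II alpha chain, had the widest spread of that list, with 449, 894, 974 and 823 CPM. All 7 varied beyond counting noise and 0 beyond genes of their level. Summed macrophage markers had 220 to 308 CPM, dendritic cell markers 50.7 to 111 CPM, endothelial markers 273 to 360 CPM and fibroblast markers 301 to 531 CPM. Itgax alone gave 45.1, 58.9, 101 and 59.3 CPM of the dendritic cell sum in tumors 1 to 4. Of the 8 macrophage markers, 5 were highest in tumor 3 and 3 (C1qa, C1qb and C1qc) were lowest there, so their sum hides opposite orders.

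**Figure D5:**
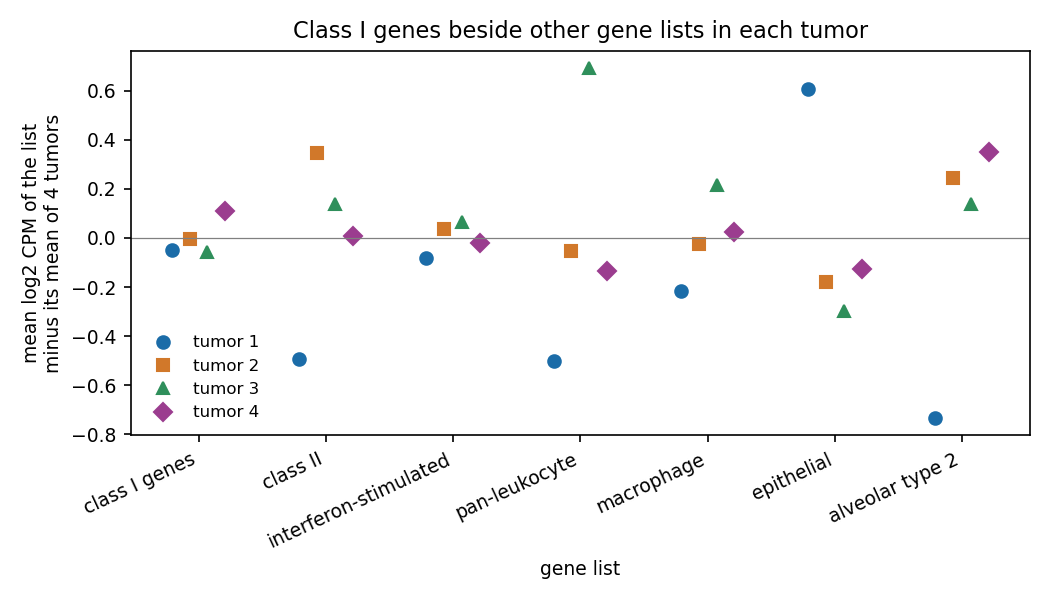
Mean log2 CPM of each gene list minus its own mean over the 4 tumors, with 1 symbol per tumor, over list genes with a mean of at least 1 CPM. The class I genes lie between -0.06 and 0.11 (SD 0.077), and the interferon-stimulated list spreads as little (SD 0.066). The class II, pan-leukocyte, epithelial and alveolar type 2 lists spread more widely, with tumor 1 at one end of each of these 4 lists.

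Defining transcripts of the lymphocytes that read class I were scarce. Cd8a, a chain of the CD8 coreceptor, had 0.330, 0.348, 0.617 and 0.119 CPM, Cd3e of the T cell receptor complex had 0.220 to 0.617 CPM, and the natural killer receptor Ncr1 had at most 0.238 CPM, at or near the level of 3 counts. The dendritic cell gene Flt3 had 0.116 to 0.864 CPM. Summed over their lists, T cell markers had 6.16 to 22.6 CPM, B cell markers 6.27 to 21.6 CPM and natural killer markers 0.440 to 2.10 CPM. Not every T cell marker was near the level of 3 counts. Cd2 had 0.990, 0.813, 12.6 and 2.14 CPM and varied beyond genes of its level (edgeR goodness of fit, adjusted p = 0.0082). Cd3g had 0.550, 0.581, 3.33 and 0.357 CPM, and Lck had 3.52, 2.67, 2.34 and 2.74 CPM. Of 6 receptors of class I, 2 had a mean of at least 1 CPM. Pirb, an inhibitory receptor of myeloid cells for class I, had 9.13, 6.16, 19.3 and 8.09 CPM. Klrc1 encodes NKG2A, which pairs with Klrd1 (CD94) and binds Qa-1, the product of H2-T23. It had 4.62, 7.20, 0 and 1.19 CPM (0 counts allow up to 0.370 CPM) and varied beyond genes of its level (edgeR goodness of fit, adjusted p = 0.0021). Klrc1 and H2-T23 were both highest in tumor 2 and lowest in tumor 3. The partner Klrd1 had 0.220, 1.28, 0.987 and 0.119 CPM from 2, 11, 8 and 1 counts. It was highest in tumor 2 too but lowest in tumor 4, and a link between these genes was not tested.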

How the data were processed

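RNA of whole single-cell suspensions from 4 macrodissected KP lung tumors (1 group) was made into TruSeq stranded mRNA libraries from 500 ng of total RNA. The authors trimmed reads with Cutadapt and aligned them to mm10 with HISAT2, and the submitters' processing notes name featureCounts 1.4.4. The deposited tables hold raw counts per Ensembl gene. The strand setting of the counting and the annotation release are not given in the sources used here. The authors also deposited log2 values made by TMM and voom, used only as an alternative. The combined and single-tumor count tables agreed in 156068 of 156068 values.

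Library sizes were scaled by TMM (edgeR 4.0.16, R 4.3.3). For log2 CPM, 0.5 was added to counts and 1 to effective library sizes. Tests covered the 14225 genes whose mean CPM was 1 or more. Spread beyond counting noise was tested by chi-square against Poisson expectations (3 degrees of freedom), and spread beyond genes of like level by edgeR goodness of fit with trended dispersion, both with Benjamini-Hochberg adjustment over all 14225 genes. Within-tumor differences of log2 CPM per kilobase (13 pairs) were tested by exact permutation of their signs (sign-flip test, two-sided). Length was the union of exons in GENCODE M21 (GRCm38). A tumor was called apart above a Dixon ratio of 0.829. Copies were found with BLAST 2.17.0 (at least 80 nt at 97% identity). On simulated counts both tests were checked for false calls, but recovery of known changes was required of the chi-square test only. DESeq2 1.42.0 size factors and other settings served as alternatives.

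The 10 genes and the 20 other lists were chosen with earlier results of these data known. Besides the 10, the genes named were, per pathway list, those with the highest and lowest level per kilobase and the largest SD, the catalytic proteasome subunits, defining cell markers, and the 5 genes (10 CPM or more on average) most like the mean of the 10 genes or Nlrc5. Some items these rules select are not reported here.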

Additional observations from a re-analysis of the deposited data

Results flagged for a closer look

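Dixon's limit for 4 values was passed in 5 of 43 results tested, where chance gives about 1 in 20. Psmb9 minus Psmb6 was lower in tumor 1 than in the others (log2 CPM per kilobase -4.92 against -4.12 to -3.99, ratio of gap to range 0.861). Tap1 minus Tap2 was lower in tumor 4, where Tap2 was highest (ratio 0.871). Psmb8 minus Tap2 was higher in tumor 3, by an amount under the counting SD of log2 CPM of Tap2, 0.13 (2.12-fold against 2.00 to 2.01-fold, ratio 0.936). The T cell list was higher in tumor 3, with a mean log2 CPM of 2.23 against 0.20 to 0.45 (ratio 0.876), from 3 genes with at least 1 CPM. Of these 3, Cd2 (102 counts in tumor 3) and Cd3g (27 counts) were highest there, whereas Lck (19 counts) was lowest there. The endothelial list was higher in tumor 3 as well, with 5.17 against 4.71 to 4.78 (ratio 0.839).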

How the results depend on the processing

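No paired analysis was possible because the 4 tumors form a single group. The count of the 10 genes varying beyond counting noise was 6 in every alternative except that it was 5 without tumor 4, where Psmb8 had an adjusted p of 0.264. That none varied beyond genes of their level held in every alternative. With a minimum of 10 CPM, 8 of the 10 genes remained to be tested. Length decided 4 orders between genes. With the longest annotated transcript the mean log2 difference became 0.072 for H2-K1 minus H2-D1 and 0.13 for Tap1 minus Tap2, and with no division by length it became 0.32 for Tap1 minus Tap2, -0.18 for B2m minus H2-K1 and -0.27 for B2m minus H2-D1. Leaving out 1 tumor moved the SD of the mean of the 10 genes between 0.028 and 0.094 and the number of neighbors in a stable order between 8 and 9 (6 to 9 over all alternatives). Leaving out single tumors lowered the SD of log2 CPM of some genes. Without tumor 1 it was 0.12 for Psmb9, without tumor 2 it was 0.022 for Nlrc5 and without tumor 3 it was 0.15 for H2-T23. Without tumor 4 it was 0.075 for Tap2 and 0.12 for Psmb8. Of these genes, Psmb9, Nlrc5 and Tap2 had not varied beyond counting noise over all 4 tumors. Of 112 alternatives for the main results 108 kept direction and side of the threshold, as did 314 of the others. Part of this was fixed beforehand. Differences between genes within a tumor do not depend on library scaling, and no pair could pass the threshold with so few tumors. These counts are therefore no measure of robustness for the pairs. Counts of 50 to 160 for Nlrc5, Psmb9 and Tap1 limit what could be seen of their spread.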

Other observations

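Class I-like molecules, which share the fold of the heavy chains but mostly serve other tasks, spread more widely than the class I genes. Of 7, 5 had a mean of at least 1 CPM, and 5 of these varied beyond counting noise and 0 beyond genes of their level, with a median highest-over-lowest ratio of 2.54. Procr, the endothelial protein C receptor, had 75.6, 53.0, 31.2 and 97.9 CPM in tumors 1 to 4 and was lowest in tumor 3. Cd1d1, which presents lipids to natural killer T cells, had 2.09, 2.21, 5.80 and 1.90 CPM and was highest there. Cd1d2 was at or under 3 counts in every tumor.

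Among the 5 genes whose centered log2 CPM over the 4 tumors lay closest to the mean of the 10 genes were Tlk1 (root mean square difference 0.0025), Cnot6l (0.0097), Srr (0.012) and Gna11 (0.014), against a median of 0.22 over 10261 genes. Closest to Nlrc5 were Esyt2 (0.0069), Rnf25 (0.0071), Zfp160 (0.011), Traf3ip1 (0.011) and Ndufaf1 (0.013), with a median of 0.23. The likeness rests on 4 values per gene and is a description only. Nlrc5 did not vary beyond counting noise, and its SD of 0.094 was below the 0.19 that counting alone would give. Both profiles were nearly flat (SD 0.077 for the mean of the 10 genes), so genes of low spread lie close to them.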
